A study of Mus musculus with 15 samples.

Results

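The transcripts described here are 9 genes that mark lymphocytes: Cd3e, Cd3g, Cd4, Cd8a and Cd8b1 for T cells, Nkg7 and Gzma for natural killer (NK) and cytotoxic T cells, and Cd79a and Ms4a1 for B cells. They were chosen by symbol from the 24499 genes of the deposited count tables, and all 9 were among the 14778 genes that passed the filter on low counts. The 15 libraries hold messenger RNA of whole liver, all from male adult mice of the C57BL/6 strain, in a model of alcoholic liver injury laid over chronic toxic injury. Chronic injury came from carbon tetrachloride (CCl4), which the liver turns into a toxic radical, at 0.2 ml/kg and 2 doses per week over 6 weeks, and the day 20 CCl4 arms went on at 0.5 of that dose. Ethanol was then given by stomach tube at up to 25 g/kg per day for 3 weeks. The labels call the arm without CCl4 OO, a name they do not spell out. The ethanol arms also received a high-fat diet and the others chow, so each ethanol comparison is a comparison of diets too.

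The groups were OO at day 0 (libraries 1 and 2), CCl4 at day 0 (libraries 3 and 4), OO with chow at day 20 (library 12), OO with ethanol at day 20 (libraries 13, 14 and 15), CCl4 with chow at day 20 (libraries 16 and 17) and CCl4 with ethanol at day 20 (libraries 18, 19 and 20). A further pair of OO libraries from another substudy was taken at day 23, library 5 with chow and library 6 with ethanol. Whether each library came from its own animal is not in the labels, and the p-values rest on the spread between libraries, which may be technical. Libraries held 10347844 to 28843258 gene counts. Levels are given as CPM, the count of a gene scaled to the size of its library, and 8 hepatocyte genes together held 73747 to 118030 CPM. Library 12, the only OO chow library of day 20, stood apart before any lymphocyte gene was considered. Its exocrine pancreas genes summed to 182 CPM, as against 178 CPM in library 6 and 6.31 to 14.5 CPM in the other 13 libraries, where 4 to 11 of the 14 genes were at 0. Its pan-leukocyte genes summed to 327 CPM and library 5's to 196 CPM. In library 12 Cxcl13, a B cell attracting chemokine, stood at 62.7 CPM, with 9.1 CPM or less elsewhere. The lymph node genes Ccl21a and Glycam1 were at 0 in all libraries, so their counts cannot tell library 12 from the others. The part of these transcripts in the results was not tested, and the results that turn on library 12 are also given with library 5 in its place.

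T cells recognise antigen through a receptor whose signal is carried by the CD3 chains, among them CD3 epsilon (Cd3e) and CD3 gamma (Cd3g). The coreceptor CD4 marks helper and regulatory T cells, and the paired chains CD8 alpha and CD8 beta (Cd8a, Cd8b1) mark cytotoxic T cells. In mice CD4 is also found on some dendritic cells and CD8 alpha without CD8 beta on others. NK cells and cytotoxic T cells kill through granules that contain granzyme A (Gzma) and the membrane protein NKG7. B cells carry an antigen receptor that signals through CD79a, and CD20 (Ms4a1) on their surface. The liver holds a resident lymphocyte population rich in NK and innate-like T cells, and fibrosis and alcohol injury both bring in leukocytes. In whole tissue, fewer cells of a type and less RNA per cell cannot be told apart.

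RefSeq (GRCm38.p6) gave a promoter for 6 of the 9 genes. Of these, 3 windows of 250 bases before the start held no base of the gene as annotated in GENCODE M21, and they are shown because they give clean upstream sequence for a CD3 chain, a CD8 chain and a granzyme. They lie at chr9:44980432-44980681 (Cd3g, minus strand), chr6:71373177-71373426 (Cd8a, plus strand) and chr13:113100982-113101231 (Gzma, minus strand) and run 5′ to 3′ on the strand of the gene, with motif matches in capitals.
Cd3g: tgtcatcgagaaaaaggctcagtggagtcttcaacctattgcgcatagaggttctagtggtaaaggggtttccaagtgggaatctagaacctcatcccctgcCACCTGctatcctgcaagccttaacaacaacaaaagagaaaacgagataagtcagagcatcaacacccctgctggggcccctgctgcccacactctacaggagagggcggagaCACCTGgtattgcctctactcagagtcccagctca
Cd8a: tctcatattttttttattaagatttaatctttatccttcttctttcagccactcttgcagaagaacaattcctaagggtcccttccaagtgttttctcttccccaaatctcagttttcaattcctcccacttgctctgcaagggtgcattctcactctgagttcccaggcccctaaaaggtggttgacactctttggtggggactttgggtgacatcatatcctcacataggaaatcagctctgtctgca
Gzma: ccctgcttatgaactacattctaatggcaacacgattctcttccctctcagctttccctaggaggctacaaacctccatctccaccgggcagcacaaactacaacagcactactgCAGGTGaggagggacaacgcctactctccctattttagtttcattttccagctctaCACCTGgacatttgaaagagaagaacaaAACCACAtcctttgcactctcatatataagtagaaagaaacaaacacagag

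Both strands were searched for 7 motifs of factors active in lymphocytes or at many promoters. The E-box CAGGTG lay in 3 of the 6 promoters (Cd3g, Cd79a and Gzma, with 2 copies each in Cd3g and Gzma) and in 17.2% of 32851 mouse promoter windows of that length. The ETS motif ACAGGAAG lay in 2 of the 6 (Cd3e and Cd79a) and in 2.9% of all windows. By GENCODE M21 the Cd79a match lies inside the annotated gene and the Cd3e match across the start of its gene. The RUNX motif TGTGGTT lay in 1 of the 6 (Gzma) and in 4.4% of all. The octamer ATTTGCAT, the EBF motif CCCNNGGGA, the TATA motif TATAAA and the PU.1 motif GAGGAAG lay in 0 of the 6, and in 1.6%, 5.6%, 12.4% and 10.6% of all windows. The 7 motifs are distinct strings that may overlap in sequence, and a match describes letters only. On mm10 the genes lie on 5 chromosomes by GENCODE M21, with Cd3e (chr9:44998740-45009627) and Cd3g (chr9:44969572-44980431) neighbours on the minus strand and Cd8b1 (chr6:71322788-71337494) and Cd8a (chr6:71373427-71379173) neighbours on the plus strand. An antisense transcript, Gm48719, shares 135 exon bases with Cd3e and is not in the tables. Strand use in the counting is not given in the sources used here, so reads of the 2 cannot be told apart.

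All 9 genes were scarce. Counts ran from 0 to 47 reads, and the mean level over the 15 libraries ran from 0.244 CPM for Cd3e to 1.37 CPM for Ms4a1. Only 1.03% of the tested genes had a lower mean than Cd3e, and 15.4% a lower mean than Ms4a1. Per kilobase of exon, the scale on which genes can be compared, Cd79a (0.598 CPM per kb) and Nkg7 (0.579) had the highest mean levels, followed by Gzma (0.422), Cd4 (0.24), Ms4a1 (0.221), Cd8b1 (0.185), Cd3g and Cd8a (0.132 each) and Cd3e (0.0599). A count of 0 occurred for Cd8b1 in libraries 1 and 13 and for Ms4a1 in library 13, where 3 reads would be 0.275 CPM in library 1 and 0.297 CPM in library 13. Those counts therefore limit the level and do not show absence. Intervals given below are exact 95% Poisson intervals and cover counting error alone.

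Summed over the 9 genes, the level was highest in the CCl4 chow livers of day 20, at 13.4 CPM in library 16 (95% interval 11.5 to 15.5) and 9.23 CPM in library 17 (7.76 to 10.9). It was lowest in the 4 OO ethanol livers, at 2.48, 2.61 and 2.39 CPM at day 20 and 2.19 CPM at day 23. The CCl4 day 0 livers held 7.89 and 8.41 CPM, the CCl4 ethanol livers 5.7, 5.15 and 4.04 CPM, the OO day 0 livers 3.3 and 5.91 CPM, and the OO chow libraries 6.16 (day 20) and 5.01 CPM (day 23). Library 16 was the highest of all 15 for 7 of the 9 genes. Cd4 was highest in library 12 and Ms4a1 in library 4.

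**Figure D1:**
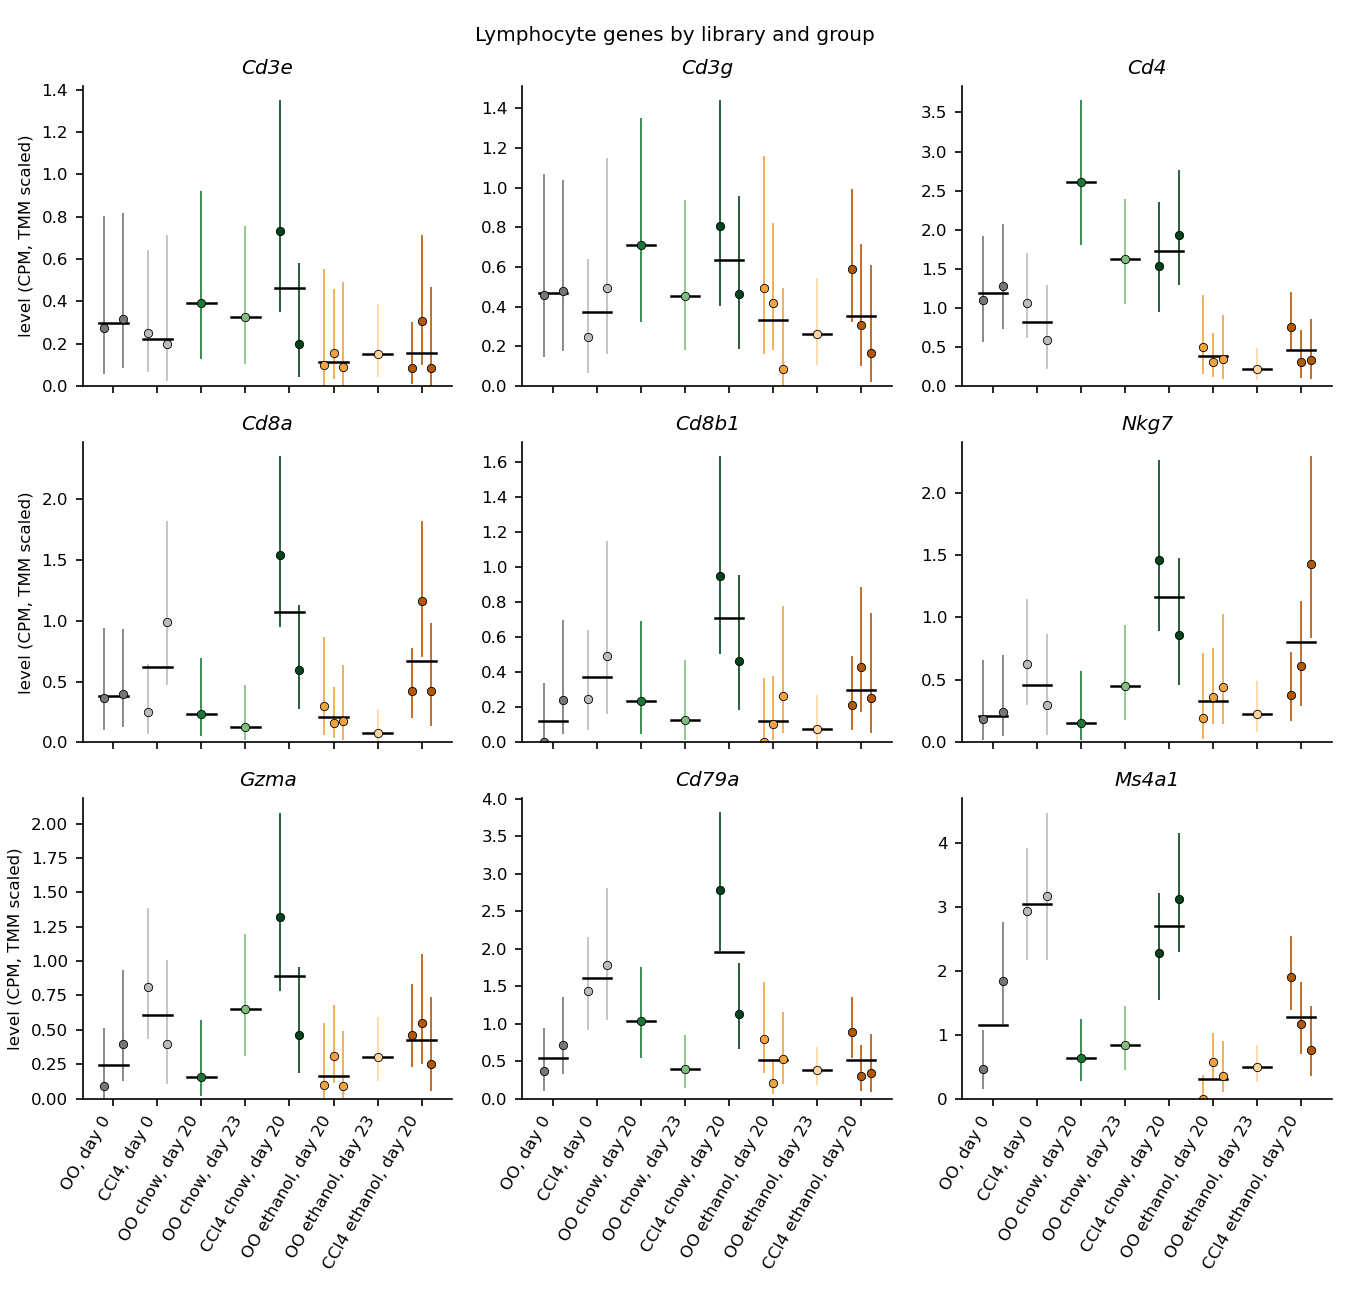
Level of each of the 9 lymphocyte genes in CPM after TMM scaling (vertical axis, linear, from 0) by group (horizontal axis); points are libraries, vertical lines exact 95% Poisson intervals and black bars group means. The ethanol livers (orange) are all below the chow livers (green) for Cd4, and library 16, the left point of the CCl4 chow group, is the highest for 7 genes.

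Cd4 was the one member that fell with ethanol by the test. It stood at 2.61 CPM in library 12 with chow (33 reads, 95% interval 1.8 to 3.66) and at 0.495, 0.313 and 0.354 CPM in the OO ethanol libraries 13, 14 and 15 (5, 6 and 4 reads). In CCl4 livers it stood at 1.54 and 1.93 CPM with chow and at 0.759, 0.307 and 0.337 CPM with ethanol. In the day 23 pair it was 1.63 CPM with chow (25 reads) and 0.226 CPM with ethanol (6 reads). All 7 ethanol libraries lay below all 4 chow libraries of days 20 and 23, a separation that 1.53% of the tested genes showed in this direction and none of the other 8 members in either direction.

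In OO livers at day 20 the log2 change of Cd4 was -2.76 ± 0.53 (SE), 6.79-fold lower with ethanol (adjusted p = 0.0172, from the quasi-likelihood test of edgeR, Benjamini-Hochberg adjusted over all genes; called means under 0.05). It was 1 of 9 members called, where 3.64% of all tested genes were called, 1.22% higher and 2.42% lower. With library 5 in place of library 12 the change was -2.06 and the call was lost (edgeR adjusted p = 0.143), as it was without library 14 (-2.60, edgeR adjusted p = 0.0539) or library 15 (-2.73, edgeR adjusted p = 0.054), and in a fit of the compared groups alone (edgeR adjusted p = 0.201). Day 20 and day 23 libraries merged gave a call (edgeR adjusted p = 0.00398). In CCl4 livers Cd4 had a log2 change of -1.80 ± 0.43 that missed the threshold (edgeR adjusted p = 0.0812), and 0 of 9 members were called there, where 1.27% of all genes were, 0.501% higher and 0.765% lower. Without library 18 it was called (-2.41, edgeR adjusted p = 0.0424). That count of 0 came with 2 members at an unadjusted edgeR p under 0.05, Cd4 and Cd79a, where 11.8% of all genes had such a p. DESeq2 and limma-voom called 0 as well. CCl4 ethanol livers against library 12 gave -2.38 ± 0.50 for Cd4 (edgeR adjusted p = 0.0305), 1 of 9 members called where 2.8% of all genes were, 1.12% higher and 1.68% lower. That comparison shares its control library with the first, and with library 5 its call was lost too (-1.65, edgeR adjusted p = 0.0926), as without library 20 (-2.22, edgeR adjusted p = 0.0759).

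The mean of the ethanol effects in OO and CCl4 livers, a comparison added after the data were seen, put Cd4 at -2.28 ± 0.34, 4.86-fold lower (edgeR adjusted p = 0.00346). It was 1 of 9 members called, with 6.83% of all genes called, 3.15% higher and 3.67% lower. This call held with library 5 in place of library 12 (-1.93, edgeR adjusted p = 0.0162) and in each of the 8 fits that left out a library. The interaction, the ethanol effect in CCl4 livers less that in OO livers, was 0.97 ± 0.70 for Cd4 (edgeR adjusted p = 0.817). No member was called for it with edgeR, DESeq2 or limma-voom, and 0.0135% of all genes were called by edgeR, all of them lower. Of the members 0 had an unadjusted edgeR p under 0.05, as against 8.22% of all genes.

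Ordered by level, Cd4 ran from 0.226 CPM in the OO ethanol liver of day 23 through 0.388 ± 0.0956 CPM in OO ethanol livers of day 20 (SD, n = 3), 0.468 ± 0.253 CPM in CCl4 ethanol livers (SD, n = 3), 0.829 ± 0.333 CPM in CCl4 and 1.19 ± 0.125 CPM in OO livers of day 0 (SD, n = 2 each). The chow livers followed at 1.63 CPM (OO, day 23), 1.73 ± 0.275 CPM (CCl4, day 20; SD, n = 2) and 2.61 CPM (OO, day 20). The day 20 ethanol groups, which are neighbours in this order, overlapped, as did CCl4 day 0 and CCl4 ethanol libraries. The day 23 chow level lay within the range of the CCl4 chow libraries.

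**Figure D2:**
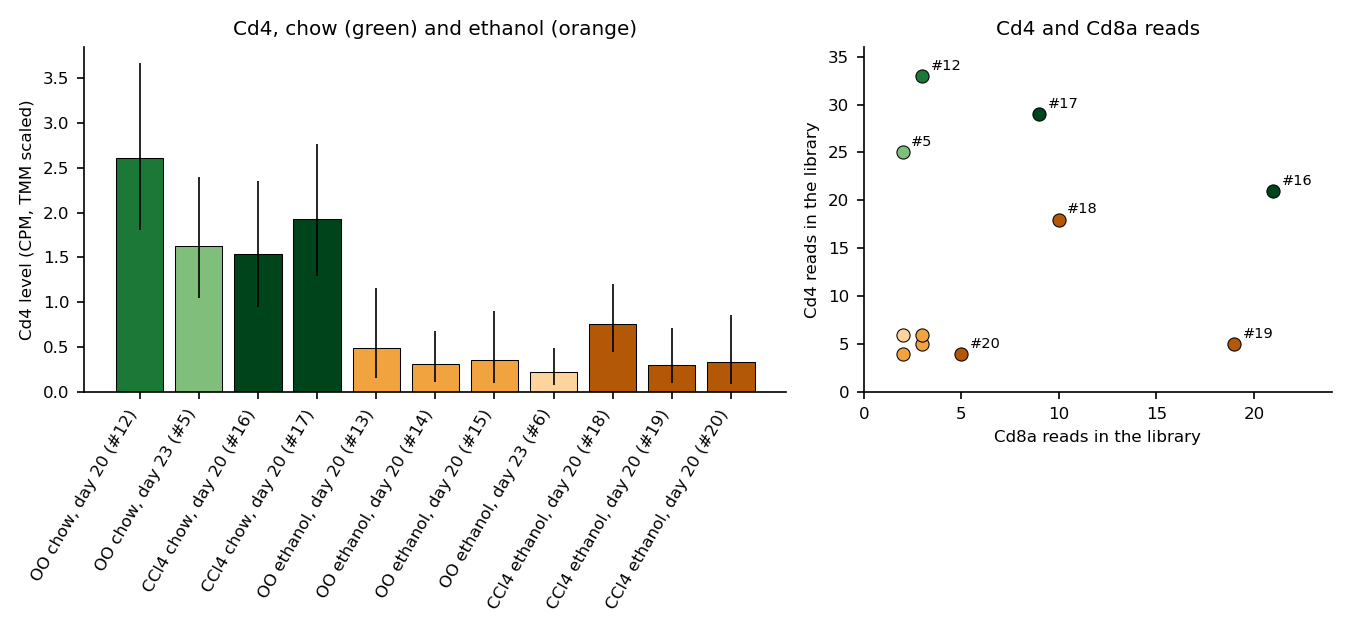
Left, Cd4 level in CPM after TMM scaling (bars, from 0) in each chow (green) and ethanol (orange) library of days 20 and 23, with exact 95% Poisson intervals; right, Cd4 reads against Cd8a reads in the same libraries, with numbers for those apart from the crowded corner. Chow libraries hold 21 to 33 Cd4 reads and ethanol libraries 4 to 18.

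The other coreceptor followed another order. Cd8a stood at 1.54 and 0.597 CPM in the CCl4 chow libraries 16 and 17, and at 0.422, 1.16 and 0.421 CPM in the CCl4 ethanol libraries 18, 19 and 20. In OO livers it stood at 0.237 CPM with chow and at 0.297, 0.157 and 0.177 CPM with ethanol at day 20, and at 0.13 and 0.0754 CPM at day 23. All 5 CCl4 libraries of day 20 thus lay above all 6 OO libraries of days 20 and 23. The share of all genes with this separation of 5 from 6 libraries was not computed, so how unusual it is cannot be said. In the smaller comparison under ethanol at day 20, of 3 against 3 libraries, Cd8a and 18.8% of all genes were higher in this way. The log2 change of CCl4 against OO was 1.69 ± 0.72 under ethanol (edgeR adjusted p = 0.114) and 2.12 ± 1.08 under chow (edgeR adjusted p = 0.774), neither of them called. Cd8b1, its partner chain, had log2 changes of 1.19 ± 0.89 and 1.54 ± 1.16 in the same comparisons, and ranged from 0 to 0.951 CPM over all libraries. Across the 15 libraries the log2 levels of Cd8a and Cd8b1 had a Pearson r of 0.71 and those of Cd4 and Cd8a one of 0.16, values described here without a test since the libraries share groups and depth.

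Of the reads given to Cd4 or Cd8a, Cd4 held 91.7% in library 12 and 92.6% in library 5 with chow. In OO ethanol livers its share was 62.5%, 66.7% and 66.7% at day 20 and 75% at day 23. In CCl4 livers it was 50% and 76.3% with chow and 64.3%, 20.8% and 44.4% with ethanol. OO chow libraries were thus above OO ethanol libraries, and the CCl4 groups overlapped. These shares rest on as few as 6 reads a library and are given as a description.

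The CD3 chains were too scarce for a firm statement. Cd3e had 1 to 10 reads per library and Cd3g 1 to 14. Under ethanol Cd3e had a log2 change of -1.64 ± 0.99 in OO and of -1.50 ± 0.73 in CCl4 livers, and Cd3g one of -1.05 ± 0.81 and -0.72 ± 0.63 (edgeR adjusted p from 0.41 to 0.732). For Cd3e the mean of both effects was -1.57 ± 0.62 (edgeR adjusted p = 0.152). The standard errors of both CD3 chains exceeded those of Cd4 in the same comparisons, and a difference between Cd4 and the CD3 chains was not tested. With library 5 the OO changes were -1.34 for Cd3e and -0.39 for Cd3g. Summed over Cd3e, Cd3g, Cd8a and Cd8b1, the level was 4.02 and 1.73 CPM in CCl4 chow livers, 1.31, 2.21 and 0.926 CPM in CCl4 ethanol livers, and 0.892, 0.835 and 0.62 CPM in OO ethanol livers of day 20. The OO chow libraries held 1.58 (day 20) and 1.04 CPM (day 23), above the 4 OO ethanol libraries, while the CCl4 groups overlapped.

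Nkg7 and Gzma, the cytotoxic granule genes, had their highest group means in CCl4 chow livers of day 20. Nkg7 stood at 1.46 and 0.863 CPM with chow and at 0.38, 0.613 and 1.43 CPM with ethanol. In OO livers it stood at 0.158 CPM in library 12, at 0.198, 0.365 and 0.443 CPM with ethanol at day 20, and at 0.455 and 0.226 CPM at day 23. The CCl4 chow livers were above every OO library, and the CCl4 ethanol livers overlapped with them. The share of all genes with this separation from every OO library was not computed. Against library 12 alone, 6 members, Nkg7 among them, and 32.6% of all genes were higher in each CCl4 chow liver. Library 12 held 2 reads of Nkg7, its lowest level of the 15 libraries, although the same library was the highest for Cd4. Gzma stood at 1.32 and 0.465 CPM in CCl4 chow livers, at 0.464, 0.552 and 0.253 CPM in CCl4 ethanol livers and at 0.0991, 0.313 and 0.0885 CPM in OO ethanol livers of day 20. The OO chow libraries bracketed most of these, at 0.158 CPM (2 reads) at day 20 and 0.65 CPM at day 23.

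CCl4 against OO under chow gave Nkg7 a log2 change of 2.81 ± 1.04 and Gzma one of 2.42 ± 1.13 (edgeR adjusted p = 0.562 and 0.735). With library 5 in place of library 12 the values were 1.38 for Nkg7 and 0.48 for Gzma. Of the 9 members 0 were called there, where 0.189% of all genes were, 0.0203% higher and 0.169% lower. Only 1 member (Nkg7) had an unadjusted edgeR p under 0.05, as 6.89% of all genes did, with 0 calls by DESeq2 or limma-voom. Under ethanol, Nkg7 changed by 1.14 ± 0.59 and Gzma by 1.17 ± 0.71 on the log2 scale (edgeR adjusted p = 0.19 and 0.273). The mean of the 2 CCl4 effects, added after the data were seen, was 1.98 ± 0.60 for Nkg7, 3.93-fold (edgeR adjusted p = 0.0494), and 1.80 ± 0.67 for Gzma (edgeR adjusted p = 0.0996). In that comparison 2 of 9 members were called higher, Nkg7 and Ms4a1, where 8.17% of all genes were higher and 5.13% lower (13.3% in all). With library 5 in place of library 12 Nkg7 was at 1.27 and not called (edgeR adjusted p = 0.1), while Cd8a, at 1.91 ± 0.65 before (edgeR adjusted p = 0.0765), was called at 2.36 (edgeR adjusted p = 0.03). The Nkg7 call was also lost with DESeq2, with limma-voom, in a fit of the compared groups alone and without library 13, 14, 15, 16, 17, 19 or 20.

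Ms4a1, the CD20 gene, had the widest range of the 9 in CPM, though not per kilobase of exon. It stood at 0.459 and 1.84 CPM in OO livers and at 2.94 and 3.16 CPM in CCl4 livers of day 0. At day 20 it stood at 2.27 and 3.12 CPM in CCl4 chow livers and at 1.9, 1.16 and 0.758 CPM in CCl4 ethanol livers. The OO livers were lower, at 0.632 CPM with chow and 0, 0.574 and 0.354 CPM with ethanol at day 20, and at 0.845 CPM with chow and 0.49 CPM with ethanol at day 23. Under ethanol the CCl4 libraries lay above the 3 OO libraries of day 20, as they did for 2 of the 9 members and 18.8% of all genes. At day 0 the CCl4 libraries lay above both OO libraries, as they did for 30.5% of all genes.

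CCl4 against OO under ethanol gave Ms4a1 a log2 change of 1.89 ± 0.67 (edgeR adjusted p = 0.0638) and Cd79a one of 0.18 ± 0.62 (adjusted p = 0.866). All 9 members had a positive log2 change in that comparison, with a median of 1.14 against -0.04 over all genes, and 0 of 9 were called, where 23.7% of all genes were, 12.7% higher and 11% lower. There 2 members had an unadjusted edgeR p under 0.05, Ms4a1 and Cd8a, as 35.7% of all genes did. Of these 2 members DESeq2 called Ms4a1 alone and limma-voom 0. Merging the day 23 with the day 20 OO libraries gave 2 calls, Cd8a and Ms4a1. The mean CCl4 effect over both feedings was 1.98 ± 0.59 for Ms4a1, 3.95-fold higher (edgeR adjusted p = 0.0484), a call that held with library 5 (1.82, edgeR adjusted p = 0.044). It was lost without library 15, 16, 17, 18 or 19 (edgeR adjusted p from 0.0526 to 0.126) and in a fit of the compared groups alone (edgeR adjusted p = 0.0694).

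Cd79a, the signalling chain of the B cell receptor, stood at 0.367 and 0.719 CPM in OO and at 1.44 and 1.78 CPM in CCl4 livers of day 0. At day 20 it stood at 2.78 and 1.13 CPM in CCl4 chow livers and at 0.886, 0.307 and 0.337 CPM in CCl4 ethanol livers. These groups did not overlap, which held in this direction for 4 of the 9 members and 13.5% of all genes. In OO livers it stood at 1.03 CPM with chow and at 0.793, 0.209 and 0.531 CPM with ethanol. Ethanol gave it a log2 change of -1.83 ± 0.59 in CCl4 livers (edgeR adjusted p = 0.22) and of -1.10 ± 0.82 in OO livers (edgeR adjusted p = 0.508). Neither was called, the first at 3.56-fold lower, and with library 5 the OO value was 0.30.

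**Figure D3:**
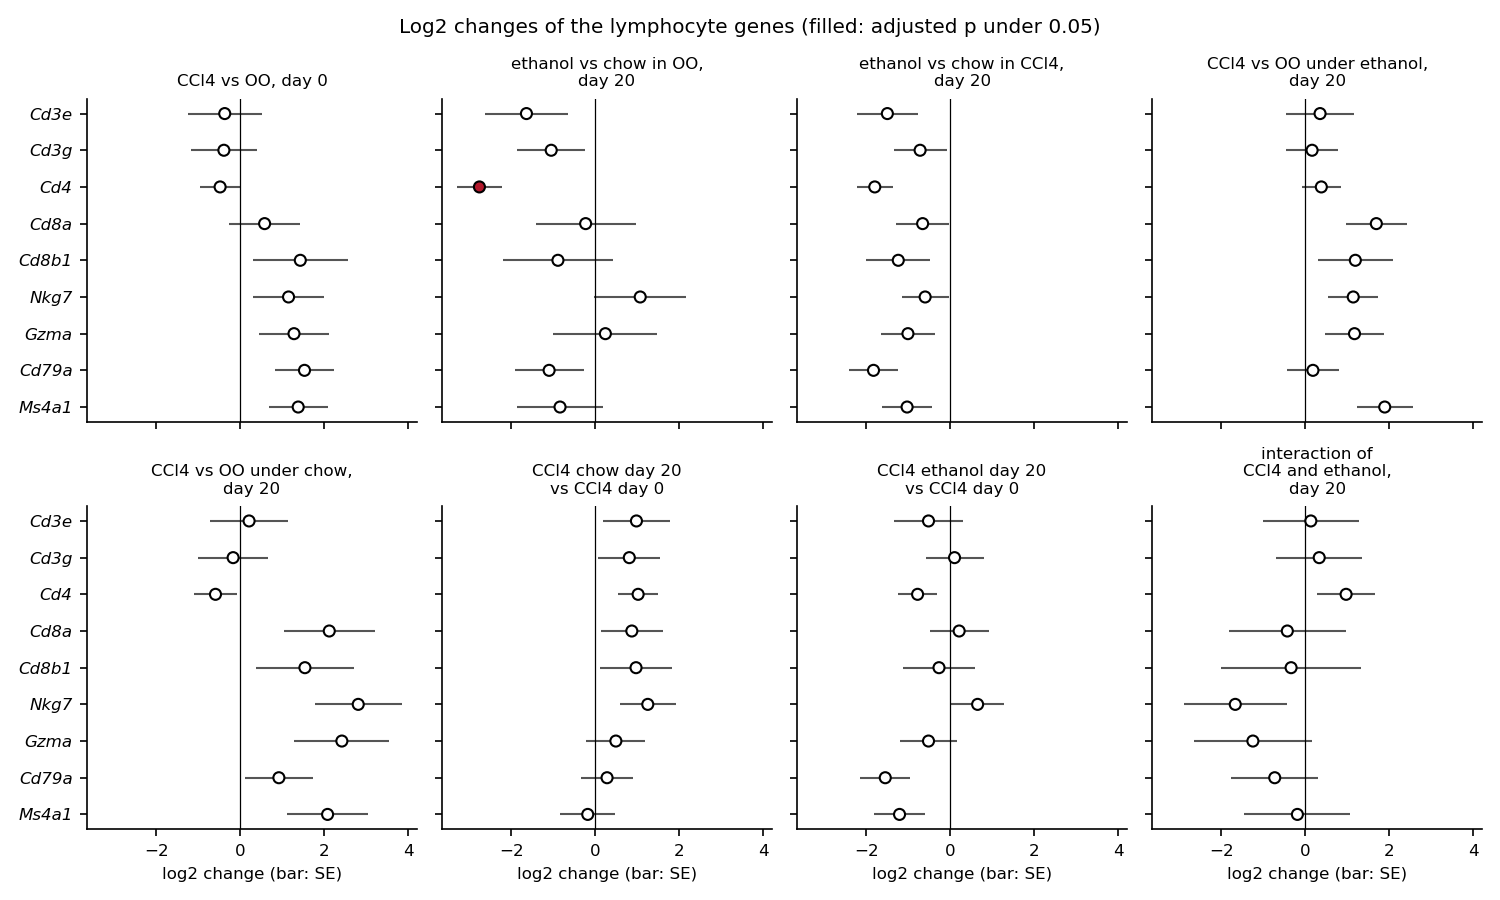
Log2 change of each of the 9 genes (horizontal axis; bars are standard errors) in the comparisons named above each panel; filled points have an edgeR adjusted p under 0.05. The filled point is Cd4 under ethanol in OO livers, at -2.76; members lie right of 0 for CCl4 under ethanol and left of 0 for ethanol in CCl4 livers.

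At day 0, before ethanol, both B cell genes were higher in each CCl4 liver than in each OO liver. Of the 9 members 4 were higher in this way and 2 lower, where 30.5% and 29% of all genes were. Ms4a1 and Cd79a summed to 4.38 and 4.94 CPM in CCl4 livers and to 0.826 and 2.56 CPM in OO livers. Cd79a had a log2 change of 1.53 ± 0.71 (edgeR adjusted p = 0.306) and Ms4a1 one of 1.38 ± 0.70 (edgeR adjusted p = 0.354), and the T members summed to 2.07 and 2.77 CPM in CCl4 and to 2.2 and 2.71 CPM in OO livers. Of the 9 members 0 were called, where 2.06% of all genes were (0.947% higher and 1.11% lower), 0 had an unadjusted p under 0.05, and DESeq2 and limma-voom called 0. In a list of other B cell genes 17 of 18 tested had a positive log2 change, with a median of 1.19 against 0.01 over all genes. Of the 18, 13 had an unadjusted edgeR p under 0.05, as 17% of all genes did, and 0 were called after adjustment. Cd79b, the partner of CD79a, had a mean of 1.43 ± 0.463 CPM in OO and 3.33 ± 0.462 CPM in CCl4 livers (SD, n = 2), and was named after its values were seen.

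The pan-leukocyte list did not share that pattern at day 0, with 0 of 12 called and a median of 0.01. Macrophage and Kupffer cell genes had 10 negative and 1 positive log2 changes (median -0.74, 2 called lower). Neutrophil genes had 9 negative and 1 positive (median -0.90, 0 called). Red cell and platelet genes summed to 198 CPM in each CCl4 liver and to 108 and 140 CPM in OO livers, with 3 tested genes positive and 3 negative. The part of these lists in the B cell values was not tested. Of 9 other T cell receptor and signalling genes tested, 1 was called at day 0, Trat1, an adaptor of the T cell receptor. It was lower in CCl4 livers, with 65 reads over the 2 OO libraries and 2 over the 2 CCl4 libraries, and its own OO libraries differed widely at 1.28 to 4.5 CPM.

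**Figure D4:**
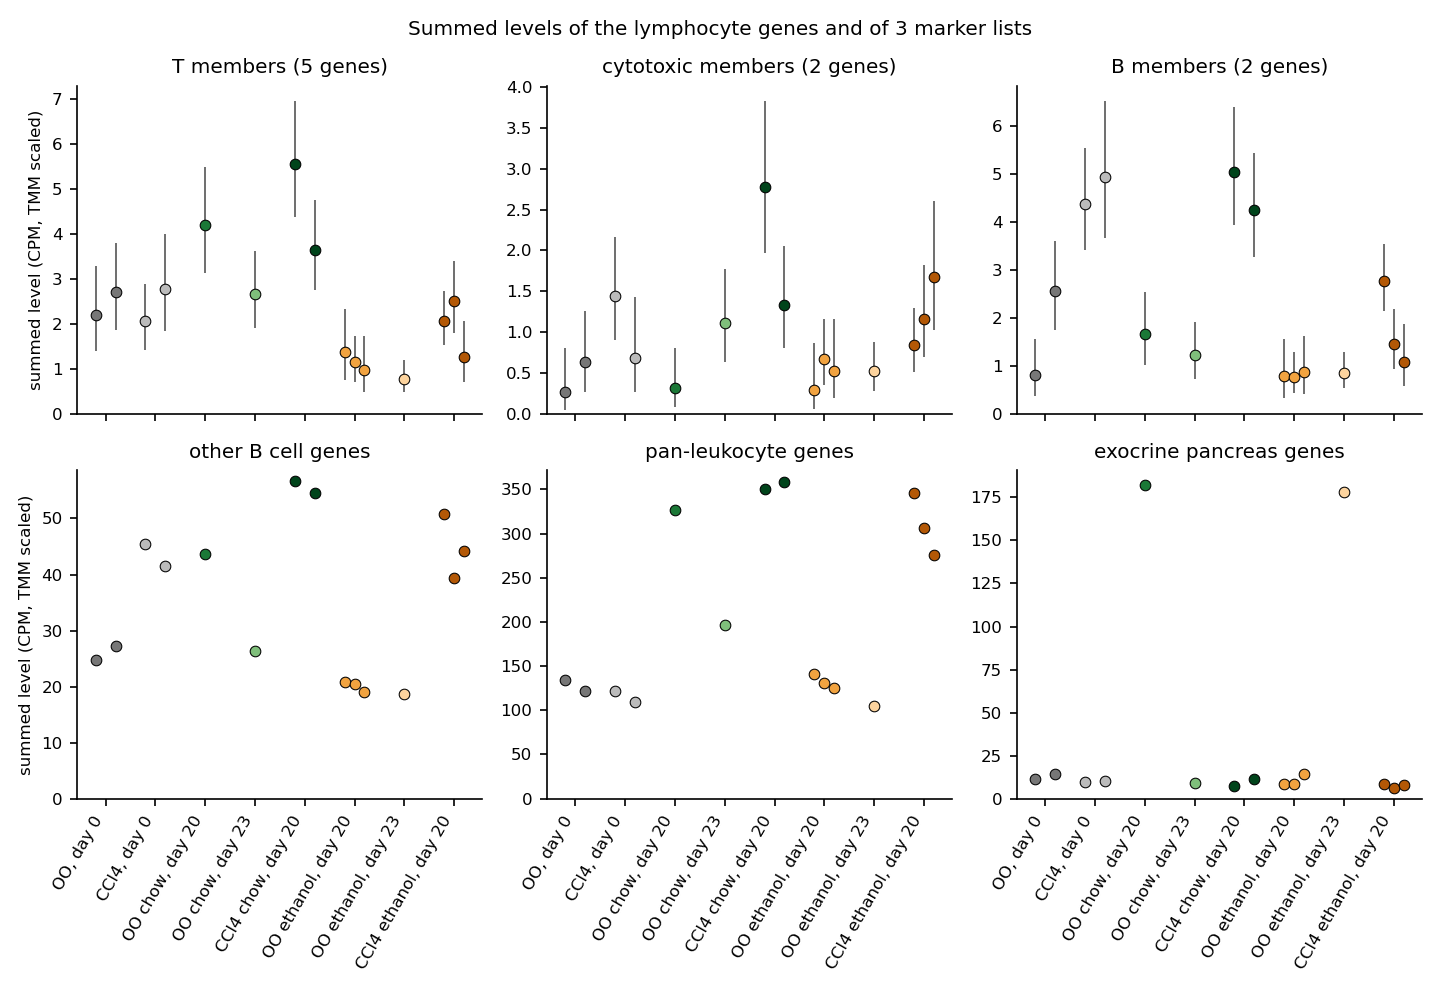
Summed level in CPM after TMM scaling (vertical axes, linear, from 0) by group; points are libraries and lines, in the top row, exact 95% Poisson intervals. The top row sums the T, cytotoxic and B members and the bottom row the other B cell, pan-leukocyte and exocrine pancreas lists; B members and other B cell genes are higher in CCl4 than in OO livers of day 0, and pancreas genes reach 182 and 178 CPM in libraries 12 and 6.

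From day 0 to day 20 the CCl4 arms were compared with livers taken before the second phase. With chow, 8 of 9 members had a positive log2 change, with a median of 0.87. By edgeR 0 members were called, where 11.5% of all genes were, 7.27% higher and 4.2% lower. At an unadjusted edgeR p under 0.05 there were 0 members and 26.5% of all genes, and DESeq2 and limma-voom called 0 members. Nkg7 changed by 1.25 ± 0.67, Cd4 by 1.02 ± 0.47 and Ms4a1 by -0.18 ± 0.65 on the log2 scale. With ethanol, Cd79a changed by -1.55 ± 0.60 (edgeR adjusted p = 0.0943) and Ms4a1 by -1.21 ± 0.60 (edgeR adjusted p = 0.187). Without library 18 Cd79a was called (edgeR adjusted p = 0.0495). Again 0 of 9 were called, where 20.7% of all genes were (11.6% higher and 9.11% lower), and DESeq2 and limma-voom called 0. An unadjusted edgeR p under 0.05 was found for 1 member and for 33.1% of all genes. Both B members, 2 of the 9, were lower in each CCl4 ethanol library than in each CCl4 day 0 library, where 27.1% of all genes were lower in this way, a share near that of the members. The 2 comparisons share the day 0 libraries.

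Of the other B cell genes 5 of 18 fell and 1 rose from CCl4 day 0 to CCl4 ethanol day 20. Fcer2a, the low-affinity IgE receptor CD23, fell by 2.32 ± 0.48 on the log2 scale (edgeR adjusted p = 0.00589), and Spib, a B cell transcription factor, fell by 1.64 ± 0.39 (adjusted p = 0.0119). Cd72, a B cell surface protein, rose by 2.40 ± 0.23 (adjusted p = 7.65e-05), from 2.36 ± 0.119 (SD, n = 2) to 12.5 ± 0.9 CPM (SD, n = 3). Over the same interval 11 of 12 pan-leukocyte genes rose, with a median of 1.54, among them Ptprc, the common leukocyte antigen CD45, by 1.33 ± 0.16 (edgeR adjusted p = 0.000254). With chow all 12 rose, while 1 of 18 other B cell genes, Cd72, did. The members, at medians of 0.87 with chow and -0.52 with ethanol, had no call in either.

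Under ethanol, CCl4 livers held more leukocyte RNA than OO livers. In this comparison 12.7% of all genes rose and 11% fell. Of the 12 pan-leukocyte genes 11 rose, with a median of 1.33, and of 10 neutrophil genes 9, with a median of 2.63. Of 18 other B cell genes 5 rose, Cd72 by 1.57 ± 0.19, Blnk, a B cell adaptor, by 2.15 ± 0.37 and Bank1, a B cell scaffold, by 0.93 ± 0.18 among them (edgeR adjusted p = 0.000275, 0.00191 and 0.00337). Of 11 other NK and cytotoxic genes 1 rose, Klrd1, the NK receptor CD94, by 1.68 ± 0.52 (adjusted p = 0.0361). Of 9 other T cell receptor and signalling genes 1 fell, Themis, a T cell signalling protein, by 2.31 ± 0.64 (edgeR adjusted p = 0.0236). The other 8 had a positive log2 change and 0 of them were called. The median of that list was 0.47, against -0.04 over all genes. Dendritic cell genes gave 5 of 10 and macrophage and Kupffer cell genes 7 of 11 higher with 1 lower. Their part in the values of the members was not tested.

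Among the other T cell genes, ethanol gave 0 edgeR calls in the 9 receptor and signalling genes in either arm. In each arm 2 of them had an unadjusted edgeR p under 0.05, as did 18.9% of all genes in OO and 11.8% in CCl4 livers. Log2 changes of these 9 genes were negative for 8 and positive for 1 in OO livers, with a median of -0.78. In CCl4 livers they were negative for 6 and positive for 3, with a median of -0.29. The median over all genes was 0.01 in each arm. With library 5 in place of library 12 all 9 were negative in OO livers, with a median of -1.07. In OO livers 8 of 12 pan-leukocyte genes, 3 of 10 dendritic cell genes and 2 of 18 other B cell genes (Cd22 and Bank1) fell relative to library 12, as did 7 of 11 macrophage and Kupffer cell genes and 2 of 10 neutrophil genes, where 2.42% of all genes fell. With library 5 in its place 0 of the pan-leukocyte, 1 of the dendritic cell and 0 each of the other B cell, macrophage and neutrophil genes were called, with medians of -0.51, -0.97, -0.61, -0.47 and -0.20. In that fit 0.63% of all genes were called in either direction, as against 3.64% with library 12. In CCl4 livers 0 of 12 pan-leukocyte, 0 of 10 dendritic cell and 0 of 18 other B cell genes were called, with 1 of 11 macrophage and 1 of 10 neutrophil genes lower, and the median was -0.24 for pan-leukocyte genes, -0.30 for dendritic cell genes and -0.84 for the other B cell genes, against -1.03 for the members and 0.01 for all genes. At an unadjusted edgeR p under 0.05 there were 3, 4 and 8 genes of the first 3 lists, and 11.8% of all genes. In CCl4 livers Cd4 stood 3.47-fold lower with ethanol, a change that was not called (edgeR adjusted p = 0.0812). The summed pan-leukocyte level was 350 and 359 CPM with chow and 346, 306 and 276 CPM with ethanol. How the Cd4 change relates to the leukocyte level was not tested. In the mean of both arms, with library 12, 8 of 12 pan-leukocyte and 6 of 10 neutrophil genes were called lower. So were 4 of 11 macrophage and Kupffer cell and 4 of 18 other B cell genes. None of these lists had a gene called higher, and 3.67% of all genes were lower.

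Other genes of the lists were also lower in the ethanol livers. Klrk1, which encodes the activating receptor NKG2D of NK and cytotoxic T cells, stood at 5.45 CPM in library 12, 3.38 CPM in library 5 and 3.19 to 3.8 CPM in CCl4 chow livers, and at 1.49 to 2.14 CPM in all 7 ethanol libraries. It fell by 1.62 ± 0.30 on the log2 scale in OO livers (edgeR adjusted p = 0.0146), and by 1.31 ± 0.20 in the mean of both arms (adjusted p = 0.00349). With library 5 as the OO control it was the single called gene of 11 other NK and cytotoxic genes in that mean, and it was not called in OO livers alone. Fcer2a fell by 2.04 ± 0.43 in the mean of both arms (edgeR adjusted p = 0.0174) and was also called with library 5.

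The genes whose levels followed the members most closely were ranked by Pearson r of log2 CPM over the 15 libraries, which share groups and depth. For the mean of the B members these were Cd79b (r = 0.93), Herc1 (0.90), Mbtps2, Hsd17b6 and Mbl2 (0.89 each). For the T members they were Tmcc3 (0.91), Nat10 (0.87), the interferon-induced genes Mx2 (0.86) and Mx1 (0.84), the T and NK cell chemokine Ccl5 (0.83) and Tlr9 (0.83). The cytotoxic members gave lower values, from 0.82 for Tnfsf13b, the B cell survival factor BAFF, through Ap1s3 and Usp43 (0.80 each), Zfp61 and Cpz (0.78 each) to Kif14 (0.77). Among the 9 themselves the highest r were 0.75 for Cd8b1 with Ms4a1 and 0.74 for Gzma with Ms4a1. The lowest was -0.19, for Cd3g with Nkg7.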

How the data were processed

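The deposited values were raw read counts per gene symbol, 1 table for each of 15 liver libraries made with an Illumina mRNA kit, per the labels. The authors' aligner was GSNAP and the build mm10, per the submitters' processing notes, which also name DESeq2 1.12.3; counting program, annotation and strand setting: not given in the sources used here. Entries for reads given to no gene held 47% to 58.6% of the reads listed and were left out. Replicates differed by more than counting error (chi-square per degree of freedom 3.93 to 78.4).

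Counts were filtered with filterByExpr to 14778 genes, scaled by TMM and fitted with edgeR 4.0.16 (R 4.3.3), 1 mean per group over all 15 libraries, with 7 residual degrees of freedom. Comparisons used the quasi-likelihood test of edgeR, p-values were adjusted by Benjamini-Hochberg over all genes, and called means an adjusted p under 0.05. Standard errors come from the test statistic. Groups of 1 library are assumed to vary like the others. CPM are TMM-scaled and SD is between libraries. The test was checked on simulated counts, with changes placed only in genes with a mean above 1 CPM and the same spread for every gene. Most members have a lower mean, so the check does not show how well changes in them are found.

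The members and lists were chosen with earlier results of these data known. Named genes were the 9 members, up to 3 called genes of a list with the smallest adjusted p, of which those bearing on the members are given, and the 6 genes most like the T, cytotoxic and B means; some genes named by this rule are not reported here. Of the listed symbols some, such as the constant regions of immunoglobulins and T cell receptors, were not matched and not analysed here. Alternatives were RLE scaling, no filter, 1 CPM in 2 libraries, DESeq2 1.42.0, limma-voom (limma 3.58.1) with and without lane as a block, robust dispersion, fewer libraries, and fits that each omit 1 library. The mean effects over both arms or feedings and list counts without library 12 were chosen later, with the data seen. Gene positions are from GENCODE M21 (23680 of 24499 symbols matched).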

Additional observations from a re-analysis of the deposited data

How the results depend on the processing

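Of 1340 recomputed log2 changes of members 0 changed sign with a call on either side, 25 lost and 11 gained a call, and 71 of 1249 uncalled ones changed sign, the largest from a size of 1.41. The count of members called moved from 1 to 0 for ethanol in OO livers and for CCl4 ethanol against OO chow, both on only the compared groups and with library 5 in place of library 12. For CCl4 under ethanol it moved from 0 to 1 (Ms4a1) without a filter, with DESeq2 and with limma-voom and lane as a block, and to 2 with merged OO libraries. For the mean CCl4 effect it moved from 2 to 1 (Ms4a1) with DESeq2 and with limma-voom with or without lane, and to 0 on only the compared groups; merged libraries gave 3. Leaving out 1 library gave 0 to 1 for each of ethanol in OO, ethanol in CCl4 (Cd4, without library 18), CCl4 under ethanol, CCl4 ethanol against OO chow, CCl4 ethanol day 20 against day 0 (Cd79a, without library 18) and the mean CCl4 effect, and 1 to 2 for the mean ethanol effect; the cause was not tested. A lone library left in a group is assumed to vary like the others.

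Counts over all genes depended more on the setting. Over alternatives other than leaving out a library they ran from 223 to 2240 at day 0 (304 in the main analysis), 16 to 1139 for ethanol in OO (538), 99 to 412 for ethanol in CCl4 (187), 2319 to 4151 for CCl4 under ethanol (3509), 28 to 378 for CCl4 under chow (28), 137 to 1494 for CCl4 ethanol against OO chow (414), 0 to 152 for the interaction (2), 1586 to 2355 for CCl4 chow day 20 against day 0 (1694), 2815 to 3716 for CCl4 ethanol day 20 against day 0 (3059), 409 to 1394 for the mean ethanol effect (1009) and 1233 to 3660 for the mean CCl4 effect (1966). Leaving out 1 library gave, in the same order, 52 to 121, 253 to 1554, 49 to 141, 2223 to 3981, 11 to 20, 222 to 641, 0 to 21, 262 to 796, 1190 to 3230, 582 to 2334 and 1058 to 2477 genes. Levels moved by -8.09% to 10.3% without TMM. Some members were not tested after the stricter filter, on fewer groups or with merged libraries, and no fit without libraries 6 and 12 exists where library 12 is the control. No paired analysis was possible because the labels number libraries without repeats. Reads of 0 to 47 a library limit what can be seen of single members.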
